A study of Mus musculus with 3 samples.

Results

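Signal for brain-derived neurotrophic factor (BDNF) and the neurotrophin receptors was examined in pooled hippocampal RNA of 3 groups of mice. The genes were Bdnf, Ntf3, Ntrk2, Ntrk3, Ngfr and Sort1, chosen by name. Of these 6 genes, 5 had a probe set carrying their symbol in the array annotation, out of 19504 genes in all, and each of the 5 was read by 1 probe set. Ntf3 is not analysed here. All mice were male C57BL/6J animals of 11 weeks. The non-restrained vehicle-injected pool (NV) held the hippocampi of 3 mice that were not restrained and received PBS. The restraint-stressed sedentary EV-injected pool (RS) held those of 4 mice that were restrained for 6 h per day over 3 weeks and then received 20 μg of serum extracellular vesicles (EVs) from donors without a wheel. The restraint-stressed exercise EV-injected pool (RE) held those of 4 mice restrained in the same way that received 20 μg of EVs from donors that had a running wheel for 4 weeks. Injections went into the lateral ventricle, and tissue was taken 3 days later. For NV the labels mention both vesicles and PBS and its protocol note gives vehicle, which was used here. RS and NV differed in restraint as well as in the injected material, and these cannot be told apart in that comparison. The labels name ventral hippocampus, whereas the study's methods name hippocampus only.

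There was 1 Affymetrix array per pool, covering whole transcripts, so no difference has a replicate check and no p-value is given. Values are log2 signals, and a difference of 1 between pools is a 2-fold difference. A gene is called higher or lower in a pool when the difference reached 2-fold, the threshold of the study's methods. Pool medians over all probe sets lay between 6.55 and 6.64. A background level of 6.01 was taken from 1450 chemosensory receptor genes, as the value that 5 in 100 of their signals exceed. Most of these genes were assumed to have little expression in the hippocampus, which was not tested. Hippocampal markers were present in every pool. At least 11 of 14 dentate granule cell genes, 6 of 8 CA1 genes and 6 of 7 CA3 genes lay above this level in each of the 3 arrays.

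BDNF is a secreted growth factor that supports the survival of neurons and the plasticity of their synapses. It is made as a precursor, and the mature form signals through TrkB, a receptor tyrosine kinase encoded by Ntrk2. The related factor NT-3 acts mainly through TrkC, encoded by Ntrk3. The precursor forms bind a complex of the p75 receptor (Ngfr) and sortilin (Sort1), which can oppose Trk signaling. In the hippocampus Bdnf is transcribed in granule cells of the dentate gyrus and in pyramidal cells, and neuronal activity and running are known to raise its transcript.

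The Bdnf gene (GRCm38.p6, chr2:109674700-109727043) has several promoters, each with its own first exon spliced to a shared coding exon. RefSeq holds 7 start windows for it, running from 250 bases before to 50 bases after a start site. Its single probe set gives 1 value for the gene, so use of the separate promoters was not measured. Of the 7 windows, 2 are shown because they hold the promoters best known for their response to neuronal activity, I and IV. The capitals mark an 8-base sequence related to the cyclic AMP response element, TCACGTAA in the window of promoter I and TCACGTCA in that of promoter IV.
Bdnf promoter I, chr2:109674450-109674749, plus strand: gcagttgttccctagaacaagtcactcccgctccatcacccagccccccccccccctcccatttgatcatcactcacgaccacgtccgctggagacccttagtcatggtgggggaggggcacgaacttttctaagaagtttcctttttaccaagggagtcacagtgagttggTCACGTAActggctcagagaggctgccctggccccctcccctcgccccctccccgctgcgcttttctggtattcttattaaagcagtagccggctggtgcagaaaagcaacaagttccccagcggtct
Bdnf promoter IV, chr2:109692186-109692485, plus strand: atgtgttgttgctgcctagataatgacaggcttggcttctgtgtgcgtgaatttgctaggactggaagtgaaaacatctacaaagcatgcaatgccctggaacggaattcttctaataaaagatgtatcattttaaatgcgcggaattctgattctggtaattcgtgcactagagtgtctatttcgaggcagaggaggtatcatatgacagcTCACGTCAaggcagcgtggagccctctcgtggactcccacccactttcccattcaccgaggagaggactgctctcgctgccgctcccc
These letters begin 78 bases before the start site in promoter I and 38 bases before it in promoter IV. They were picked after reading the windows. On either strand, TCACGTAA was found in 0.180% and TCACGTCA in 0.441% of 32851 RefSeq windows of the same length, and the full element TGACGTCA in 1.79%. TGACGTCA was in none of the 7 Bdnf windows. The single windows of Ntrk2 and Ngfr held none of the 3 sequences.

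Bdnf had the largest difference of the 5 genes. Its log2 signal was 10.65 (NV), 12.36 (RS) and 11.91 (RE). Both restrained pools were thus above the non-restrained pool, and RS was the highest. The difference between RS and NV was 1.72, which is 3.28-fold on the linear scale, and placed Bdnf 94th from the top among 19504 genes. In all, 1.14% of genes had a difference of this size or more in either direction, and 1.63% of those whose higher array was above background. All 3 Bdnf values were at least 4.64 above the background level. In a pool of tissue, fewer cells of a type and less RNA per cell cannot be told apart, and this holds for every gene below.

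**Figure D1:**
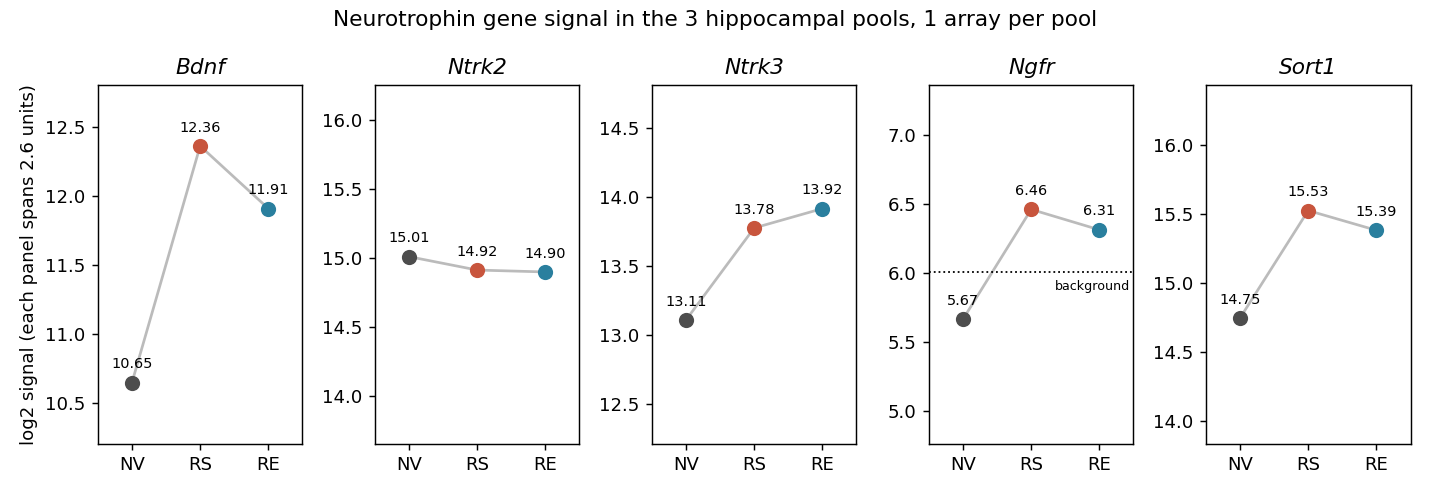
Log2 signal (vertical axis) of the 5 measured genes in the NV, RS and RE pools (horizontal axis), with 1 point per array and no error bars because each pool had 1 array. Every panel spans the same number of log2 units. Bdnf runs from 10.65 in NV to 12.36 in RS, whereas Ntrk2 stays between 14.90 and 15.01.

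The receptors differed less between the pools. Ntrk2 (GRCm38.p6, chr13:58806472-59133970) had a log2 signal of 15.01 (NV), 14.92 (RS) and 14.90 (RE). These 3 values span 0.11, and 82.6% of all genes differed by as much or more between RS and NV. TrkB is made both as a full-length receptor and as truncated forms that lack the kinase, and the single probe set gives 1 value for the gene. Ntrk3 (chr7:78179986-78581034) had 13.11 (NV), 13.78 (RS) and 13.92 (RE), so that RE was the highest pool. Its difference of 0.67 between RS and NV, 1.59-fold, was not past 2-fold.
Ngfr (chr11:95568818-95587698) had 5.67 (NV), 6.46 (RS) and 6.31 (RE). The NV value was under the background level, and all 3 values were under 6.94, the 99th percentile of the chemosensory receptor genes, so the size of its difference of 0.80 between RS and NV is uncertain. The p75 receptor is known in the adult forebrain mainly from cholinergic neurons of the septum. Of 7 measured genes of those neurons, 5 were at or below background in all 3 pools, among them Chat, which makes acetylcholine, and its vesicular transporter gene Slc18a3. The other 2 were above it in all 3. Ache had 9.18 (NV), 8.83 (RS) and 9.03 (RE), and Lhx8 had 6.26, 6.26 and 6.17. The part of such neurons in the Ngfr values was not tested. Sort1 (chr3:108283974-108361519) had 14.75 (NV), 15.53 (RS) and 15.39 (RE). Sortilin also directs BDNF into secretory granules. The Sort1 difference of 0.78 between RS and NV was 1.72-fold.

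**Figure D2:**
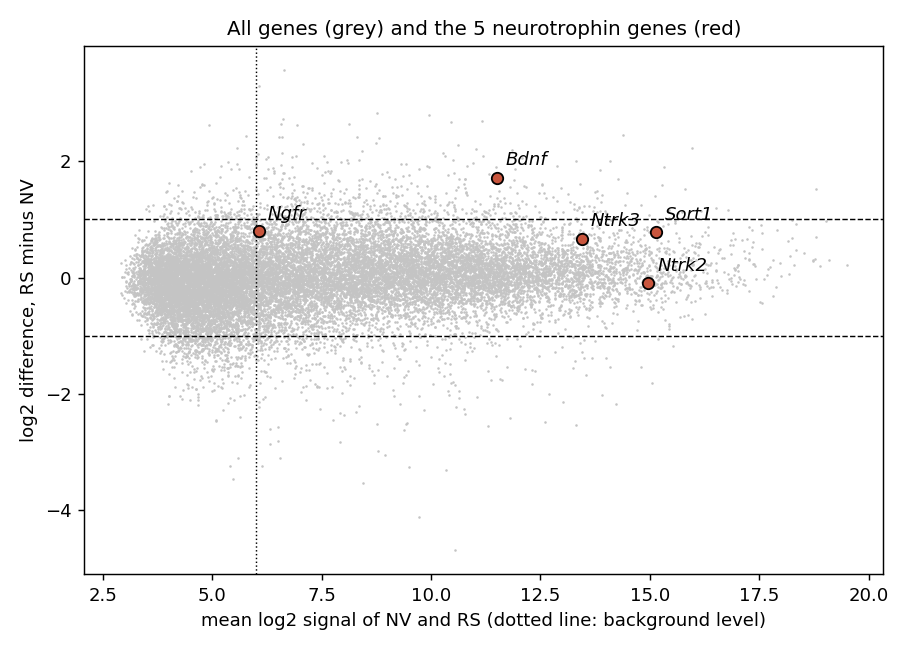
Log2 difference between RS and NV (vertical axis) against the mean log2 signal of these 2 pools (horizontal axis) for 19504 genes in grey, with the 5 genes in red. Dashed lines mark 2-fold and the dotted line the background level of 6.01. Bdnf lies above the upper dashed line at 1.72 and the other 4 genes lie between the lines.

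Between RS and NV, 1 of the 5 genes (Bdnf) was higher and 0 were lower, whereas 7.8% of all genes were called in either direction, 3.52% higher and 4.29% lower. The median difference was 0.78 for the 5 genes and -0.01 for all genes. A count of 1 in 5 is too small to set apart from that background.

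Between RE and RS, the comparison that asks whether EVs from exercised donors acted differently from EVs of sedentary donors, 0 of the 5 genes were called, and 1.16% of all genes were, 0.441% higher and 0.723% lower. Bdnf differed by -0.45, so its signal in RS was 1.37-fold that in RE, and 18.0% of all genes differed by as much or more. The difference was -0.01 for Ntrk2, 0.14 for Ntrk3, -0.15 for Ngfr and -0.14 for Sort1. At least 63.9% of all genes differed by as much or more than each of these 4. The median was -0.14 for the 5 genes and -0.07 for all genes.
Between RE and NV, Bdnf was again higher, by 1.26 or 2.40-fold, and the other 4 genes were not called, against 7.98% of all genes called in either direction, 2.87% higher and 5.12% lower. Ntrk3 differed by 0.81, Ngfr by 0.65, Sort1 by 0.64 and Ntrk2 by -0.11. The 3 comparisons share arrays, so they do not check each other.

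**Figure D3:**
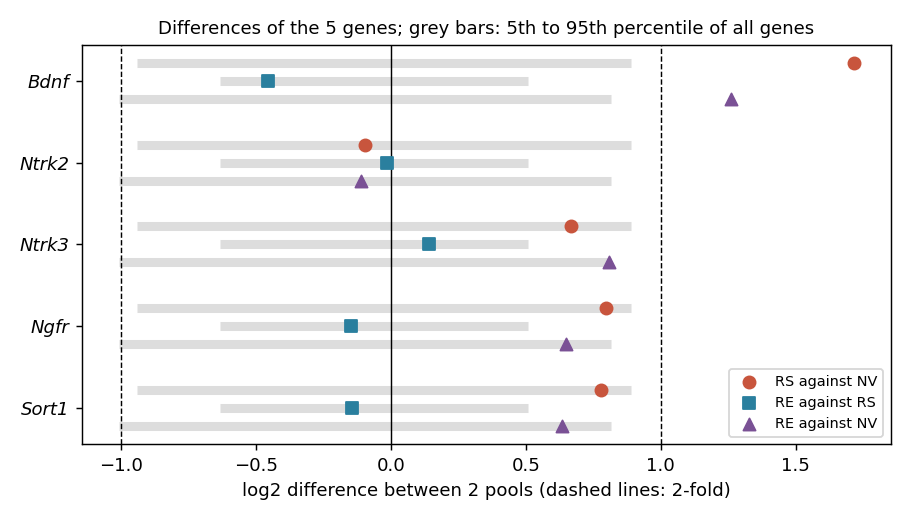
Log2 differences of the 5 genes (horizontal axis, genes on the vertical axis) in RS against NV (circles), RE against RS (squares) and RE against NV (triangles). Grey bars span the 5th to 95th percentile of all genes in the same comparison, and dashed lines mark 2-fold. Bdnf lies beyond the grey bar at 1.72 for RS against NV and at 1.26 for RE against NV, and within it at -0.45 for RE against RS.

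The likeness of other genes to each of the 5 was measured as the distance in 2 differences, RS minus NV and RE minus RS, over 3 arrays and 11409 candidate genes. Fewer genes lie near a large difference than near 0, so the number of near genes follows from its size. For Bdnf 4 genes lay within 0.1, and the nearest were Zfp992 at 0.05, Plekhg1 at 0.08 and Ephb4 at 0.10. The signal of Zfp992, a zinc finger gene, was 8.48 (NV), 10.24 (RS) and 9.75 (RE). Plekhg1, which is also in the list of thalamus and habenula genes, had 8.34, 10.03 and 9.49 in the same order. Ephb4, an ephrin receptor, had 5.52, 7.32 and 6.92, with NV under the background level.
The numbers within 0.1 of the receptors were 473 for Ntrk2, 99 for Ntrk3, 134 for Ngfr and 146 for Sort1. The nearest were Bnip2, Antxr1 and Tcp1 for Ntrk2, and Nek7, Gtf3c3 and Nr2c2 for Ntrk3. For Ngfr they were Kcns2, Lias and Emg1, and for Sort1 they were Zfp113, Unc45a and Ngly1. Their distances were between 0.004 and 0.014.

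The single other ligand measured lay below background, and the sorting receptors related to sortilin differed in both directions. Ntf5, which encodes the second TrkB ligand NT-4, had a log2 signal of 3.91 (NV), 3.99 (RS) and 4.07 (RE), all below background. Of 4 other sorting receptors of the sortilin family, 1 was lower and 0 were higher in RS than in NV, beside 4.29% and 3.52% of all genes. With 4 genes this count cannot be set apart from that share. Sorcs1 had 8.42 (NV), 7.28 (RS) and 7.12 (RE), with a difference of -1.14 between RS and NV, opposite in sign to Sort1. Sorl1, which encodes SorLA, had 12.64, 13.29 and 13.26 in the same order, a difference of 0.65 between RS and NV. Sorcs2, a partner of p75 and TrkB, had 7.78, 8.22 and 8.03. Sorcs3 had 8.82, 9.08 and 9.59, with its highest value in RE, 0.77 above NV.

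None of the measured genes that process and secrete neurotrophin precursors reached 2-fold in RS against NV or RE against RS. Of 14 measured, 0 were called between RS and NV, with a median of -0.13, and 0 between RE and RS, with a median of 0.11. Of all genes, 7.8% and 1.16% were called in these comparisons, so 0 of 14 cannot be set apart from that background. The largest differences between RS and NV among those above background were -0.74 for Cpe, a sorting enzyme of secretory granules, and 0.61 for Serpini1, an inhibitor of tissue plasminogen activator. Pcsk1, a convertase of neuroendocrine granules, had 8.91 (NV), 8.41 (RS) and 8.99 (RE). The protease genes Mmp3, Mmp7, Mmp9 and Plg were at or below background in all pools.
Of 12 measured partners of the p75 receptor, 0 were called in either comparison, again too few genes to set apart from the 7.8% and 1.16%. Rtn4r, the Nogo receptor, had 6.31 (NV), 7.06 (RS) and 7.24 (RE), and Traf6, an adaptor, had 7.38, 8.01 and 7.73.

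Calls among the signaling proteins below the receptors are given beside the 7.8% of all genes called in RS against NV and the 1.16% in RE against RS. Of 24 Trk adaptors, 0 were called higher in RS and 1 called lower against NV. It was Frs3, with -1.29 and both values below background. In RE 1 adaptor was lower than in RS, Plcg2 with -1.04, from 6.50 to 5.45, a value below background, and this call was lost after centring each comparison on its median. Of the adaptors above background, Gab2 differed by -0.94 and Rap1a, a small GTPase, by 0.85 between RS and NV.
Of 43 kinases and effectors, 1 was called higher in RS and 2 called lower against NV, with a median of 0.20. Camk2d, the delta chain of calcium/calmodulin-dependent kinase II, had 14.58 (NV), 12.04 (RS) and 12.58 (RE). Bcl2, a survival gene, had 10.92, 9.59 and 10.04. Prkcd, a protein kinase C that is also in the list of thalamus and habenula genes, had 7.10, 9.08 and 8.78. In RE against RS 0 of the 43 were called, with a median of -0.13. The lowest of them were Camk2a with -0.98, Calm3 with -0.93 and Calm2 with -0.87, all at log2 signals above 16, for which the processing that gave such values is not known.

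Of 16 measured regulators of Bdnf transcription, 1 was called higher in RS and 0 called lower against NV, with a median of 0.17. Of all genes, 3.52% were higher and 4.29% lower in that comparison, and 1.16% were called in RE against RS. A count of 1 in 16 is too small to set apart from that share. Nr3c2, the mineralocorticoid receptor, had 11.91 (NV), 13.83 (RS) and 13.69 (RE). The difference between RS and NV was 0.92 for Mef2a and -0.75 for Mef2c, both activity-regulated transcription factors, and 0.82 for Carf, a calcium-response factor. Creb1, which binds the cyclic AMP response element, had 9.51, 10.23 and 10.15, and its coactivator Crtc1 had 13.13, 13.81 and 13.86. Both were chosen for naming after their values were seen. Of the 16 differences between RS and NV, 9 were above 0 and 7 below. A part of any of these regulators in the Bdnf values was not tested. In RE against RS 0 of the 16 were called, with -0.72 for Usf1 and -0.70 for Carf.
Of 16 genes known to be induced by BDNF or by activity, 4 were called higher in RS and 0 called lower against NV. This stands beside 3.52% of all genes higher and 4.29% lower, and the median of the 16 was 0.47. The list was chosen with earlier results of these data known, so the count is not an independent check. The 4 called genes were Dusp4, a phosphatase of MAP kinases, with 1.62 and an NV value below background, and 3 others. These were the transcription factor genes Egr3 with 1.27 and Junb with 1.24, and the synaptic gene Arc with 1.13. Egr3 had 0.50 when its 3 probe sets were averaged. Vgf, a secreted peptide precursor that BDNF induces, had -0.94 in the same comparison, a value chosen after it was seen. Between RE and RS 0 of the 16 were called, beside 1.16% of all genes, and the median was -0.29. Egr1 had 11.40 (NV), 12.26 (RS) and 11.34 (RE), a difference of -0.92 between RE and RS. That for Arc was -0.42.

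**Figure D4:**
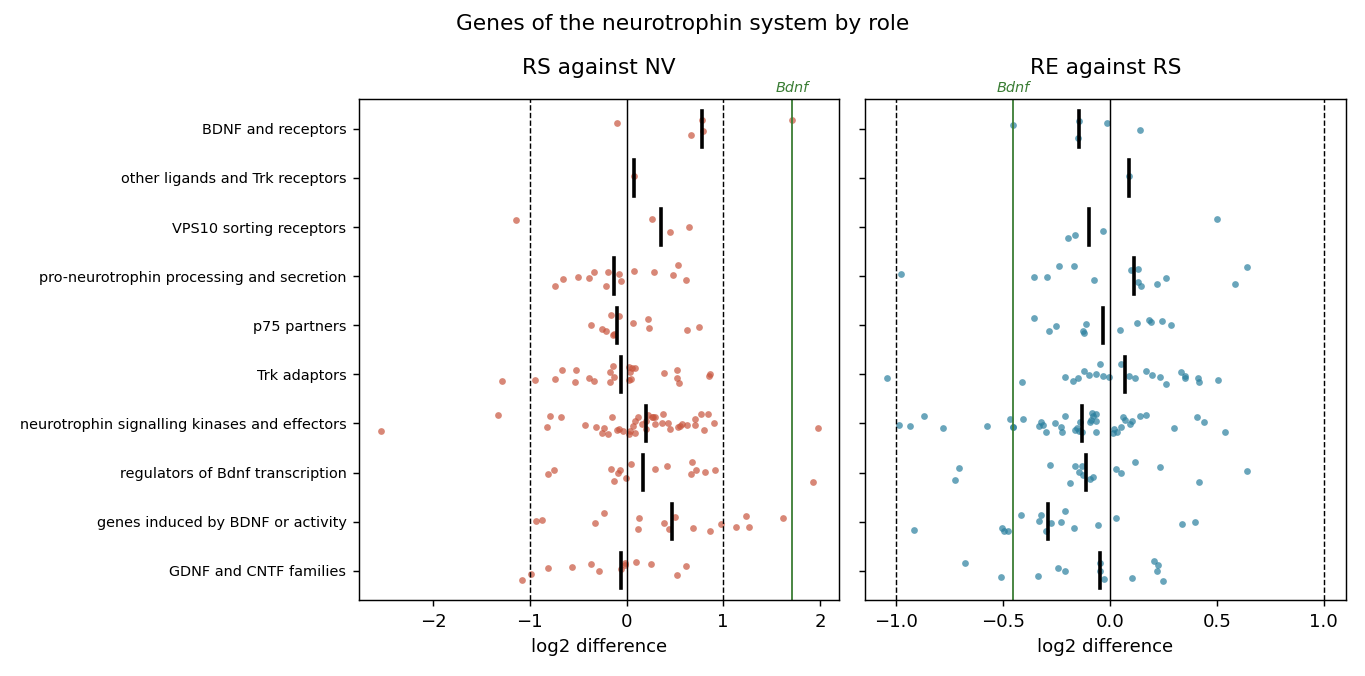
Log2 difference (horizontal axis) of each measured gene in lists of the neurotrophin system (rows), in RS against NV on the left and RE against RS on the right, with axes of different width. Points are genes, black bars are list medians, dashed lines mark 2-fold and the green line marks Bdnf. In RS against NV the median of the 16 genes induced by BDNF or activity is 0.47 and that of the 24 Trk adaptors is -0.05.

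Markers of some cell types and hippocampal regions differed between the same arrays. The counts for every marker list below stand beside the calls over all genes. Those were 7.8% in RS against NV, 3.52% higher and 4.29% lower, and 1.16% in RE against RS. The marker lists were chosen with earlier results of these data known, so their counts are a description and not an independent check. Of 14 dentate granule cell genes, 9 were called higher in RS and 0 called lower against NV, with a median of 2.41. Their summed linear signal was 15454 (NV), 33548 (RS) and 27242 (RE), the same order of pools as for Bdnf. This order was not particular to granule cell genes. The sum of CA3 genes was 17530.5 (NV), 21951 (RS) and 19911 (RE), and that of microglia genes 5895, 10022 and 8192. The sum of oligodendrocyte genes, given below, had the same order, and those of the other marker lists did not. Dsp, Lct and Tdo2 of this list were below background in NV only. The highest differences were 3.57 for Dsp, which encodes desmoplakin, 3.29 for Tdo2 and 2.83 for Trpc6. Between RE and RS 1 of the 14 was lower, Tdo2, and the median was -0.31, beside -0.45 for Bdnf. The part of granule cell content in the Bdnf values was not tested.
Of 14 ventral hippocampus genes, of which the study itself picked Trhr on these arrays, 8 were lower and 1 was higher in RS, with a median of -1.09, and 4 were higher in RE than in RS, with a median of 0.49. Their summed signal was 96860 (NV), 55838 (RS) and 70809 (RE), the reverse of the order for Bdnf. The sums of CA1, interneuron, septal cholinergic and fibroblast genes had this reverse order too, but genes of high signal weigh most in a sum. The CA1 median between RS and NV was 0.57, with 6 of 8 differences above 0. Between RE and RS the median was -0.10 for fibroblast and -0.09 for septal cholinergic genes. In these 2 lists 8 of 13 and 4 of 7 differences were below 0. The interneuron medians, -0.66 between RS and NV and 0.17 between RE and RS, followed the order of their sum. Coch is counted in this list and in the CA3 list, and Dcn in this list and in that of fibroblasts. Of 12 thalamus and habenula genes, 3 were lower and 2 higher in RS than in NV, and the summed signal was 15620 (NV), 4424 (RS) and 4069 (RE). The median of the list between RS and NV was -0.28, and 5 of the 12 were at or below background in all 3 pools. Tcf7l2, a transcription factor of the thalamus, differed by -4.68 and Slc17a6 by -3.30. In the other direction, Prkcd differed by 1.98 and Plekhg1 by 1.69.
Oligodendrocyte genes were above NV in RS. Of 11 measured, 5 were called higher in RS and 0 called lower against NV, with a median of 0.95 and summed signals of 121008 (NV), 248739 (RS) and 203270 (RE). Between RE and RS their median was 0.08 and 6 of the 11 differences were above 0, so the order of RS and RE in the sum did not hold for most of the genes. None of the 11 was below background in any pool. Of 12 astrocyte genes, 1 was higher (Gfap, 1.04) and 0 lower, and the median was -0.15, beside -0.10 for Ntrk2, whose truncated forms astrocytes make. The summed signal of the astrocyte genes was 449545 (NV), 405287 (RS) and 296540 (RE). Between RE and RS 0 of the 12 were called and their median was -0.23, and genes of high signal weigh most in such a sum. Of 13 interneuron genes, 4 were lower and 0 higher in RS than in NV, led by Gad2 with -1.57. The part of these cells in the receptor values was not tested.
Calls in the other marker lists were as follows, beside 7.8% of all genes called in RS against NV. A count of 0 or 1 in such short lists is too small to set apart from that share. In RS against NV, 2 of 8 CA1 genes were higher and 0 lower, 1 of 7 CA3 genes was higher and 1 lower, and 1 of 10 microglia genes was higher and 0 lower. Of 13 fibroblast and meninges genes, 1 was higher and 4 lower, and of 12 endothelial and pericyte genes 0 were higher and 1 lower. Of the 7 septal cholinergic genes 0 were called.

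**Figure D5:**
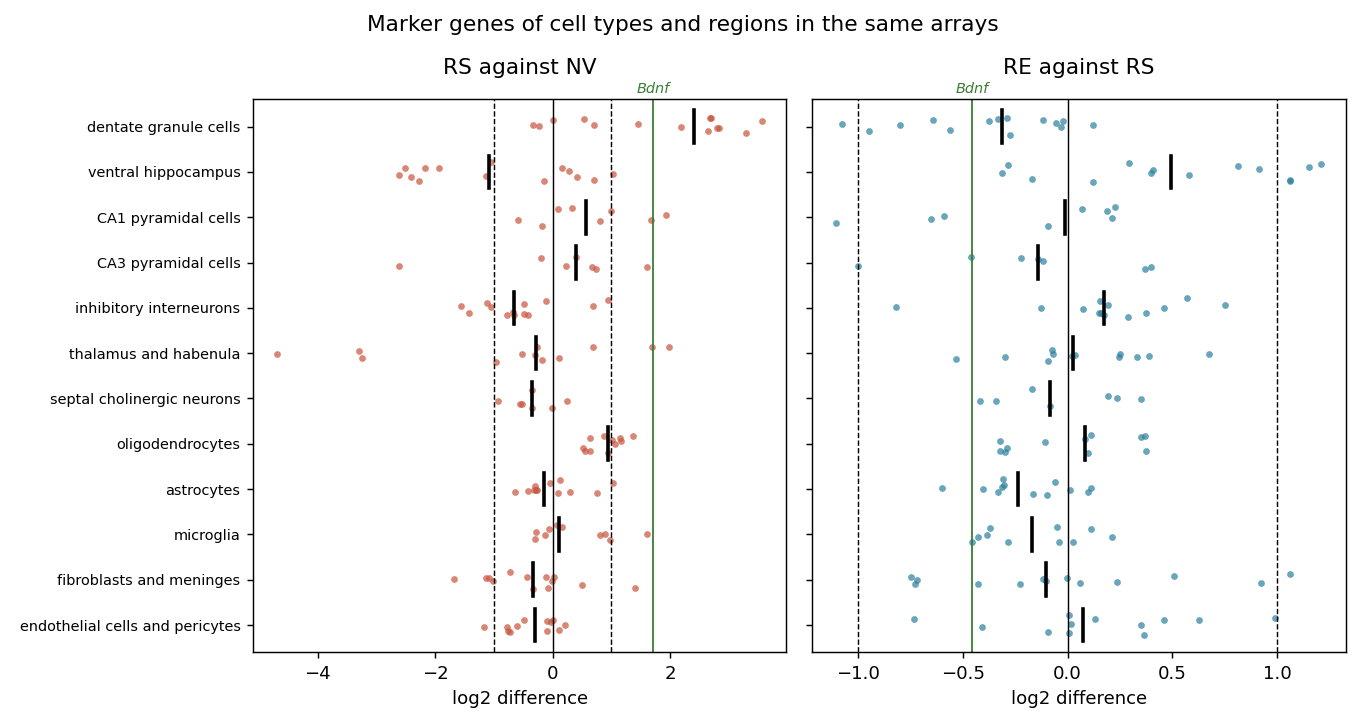
Log2 difference (horizontal axis) of each marker gene of 12 cell types and regions (rows), in RS against NV on the left and RE against RS on the right, with axes of different width. Points are genes, black bars are list medians, dashed lines mark 2-fold and the green line marks Bdnf. The dentate granule cell median is 2.41 on the left and -0.31 on the right, and the ventral hippocampus median is -1.09 and 0.49.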

How the data were processed

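Hippocampi were pooled within each group and RNA of each pool was run on 1 Affymetrix whole-transcript array. The authors deposited 1 table of log2 signals for 22205 probe sets. Per the study's methods the signals came from Affymetrix Command Console. RMA and the Affymetrix Power Tools are listed in the submitters' notes on processing, without versions. The lowest value was 2.71 and the highest 19.9, and what took some above 16 is unknown. Depth does not apply to arrays, and their number limits the precision.

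Symbols came from the platform annotation, which gave 1 symbol to 19571 probe sets, several to 0 and none to 2634. Where a gene had more than 1 probe set (55 genes), that of highest 3-array mean was kept. Differences of log2 values were taken between pools, with no test. Sequences and gene positions are RefSeq's (GRCm38.p6), and RefSeq windows were found for Bdnf, Ntrk2 and Ngfr. No probe positions were used, so which transcripts a probe set reads is not known.

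The genes, 9 pathway lists and 12 marker lists were chosen with earlier results of these data known. List members were matched by symbol or gene identifier, and unmatched members are not analysed here. Named list genes were those of the sortilin and ligand lists, up to 4 per other pathway list and comparison and up to 3 per marker list, by size of difference among genes whose higher array was above background. Genes that a list count covers, those at or below background in every pool, the septal markers and a few genes marked as such were added after their values were seen. Whether the calls would repeat in other pools was not tested, because each group had 1 array. Scripts used pandas 2.3.3 and numpy 2.4.6 under Python 3.11.15, with statsmodels 0.14.6 for lowess and matplotlib 3.10.9 for plots. Alternatives were centring on the median, quantile normalisation, removal of a lowess trend (span 0.3), the mean of probe sets, a filter on low signal, all rows, a 1.5-fold threshold and a background at the 99th percentile.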

Additional observations from a re-analysis of the deposited data

How the results depend on the processing

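With 1 array per group no array could be left out. No paired analysis was possible because each group had 1 pool. The 15 differences of the 5 genes stayed on the same side of 2-fold in all 45 values from the 3 scalings. Averaging probe sets and the filter on low signal left them as they were, since each gene has 1 probe set and passed the filter. Bdnf had 1.59 to 1.72 for RS against NV, -0.45 to -0.37 for RE against RS and 1.21 to 1.32 for RE against NV. The small differences of Ntrk2 and Sort1 between RE and RS changed sign under some scalings, from -0.01 to 0.18 and from -0.14 to 0.09. At 1.5-fold, 4 of the 5 genes were called in RS against NV, beside 4970 of all 19504 genes. In RE against NV 4 of the 5 were called, beside 5164 of 19504. Between RE and RS 0 of the 5 were called, beside 1909 of 19504. Among genes whose higher array was above background, 105 were called in RE against RS and 976 in RE against NV, with fewer genes tested. Ngfr was above background in 2 pools, and in 0 with the 99th percentile. As deposited, 86 genes were higher and 141 lower in RE than in RS, or 123 and 104 after centring on the median. In RE against NV 559 were higher and 998 lower, or 710 and 695 after quantile normalisation. Of 162 alternative counts for pathway lists, 34 moved by more than 1.5 times or to or from 0. Lif was not called in RS against NV after quantile normalisation or removal of the lowess trend, and Plcg2 was not called in RE against RS after any of the 3 scalings. Of 180 marker list medians, 1 moved past 2-fold, that of thalamus and habenula genes in RE against NV, at -1.04 with low signals left out. Values near the background level have the least certain differences.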

Other observations

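Genes of the GDNF and CNTF families, which are other neurotrophic factors and receptors, often lay below background. Of 13 measured, 7 were at or below it in all 3 pools. In RS against NV 0 of the 13 were higher and 1 was lower, and the median was -0.06. Beside 7.8% of all genes called, a count of 1 is too small to set apart. The lower gene was Lif, with -1.08 and both values below background. This call was lost after quantile normalisation, after removal of the lowess trend and with low signals left out. Between RE and RS 0 were called, with a median of -0.04. The ligand genes Gdnf, Artn, Pspn and Cdnf were at or below background in all 3 pools. Gfra1, a GDNF receptor, had 11.43 (NV), 11.14 (RS) and 11.09 (RE), and Cntfr, the CNTF receptor, had 10.72, 10.98 and 10.64. Nrtn, which encodes neurturin, had 5.61, 6.13 and 5.46, so that only RS was above background.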
